A study of Mus musculus with 8 samples.

Results

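The SREBP system is described here by 9 genes, taken by symbol from a table of 41730 gene rows, all of which were found: the transcription factors Srebf1 and Srebf2, the escort Scap, the retention proteins Insig1 and Insig2, the proteases Mbtps1 and Mbtps2, and the ubiquitin ligases Rnf145 and Rnf139. They were read in naive mouse CD8+ T cells, isolated with a magnetic kit, after 24 h in culture with 2 µM RGX-104, a compound that activates LXR, the liver X receptors, against the same cells cultured for 24 h with the solvent DMSO. Each group held 4 libraries, RGX-104 replicates 5 to 8 and DMSO replicates 1 to 4. The labels give no strain, age or sex of the mice and do not say if the 4 libraries of a condition are separate mice or separate cultures. The p-values therefore rest on differences among these libraries alone, which could be technical.

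SREBPs are made as precursors in the membrane of the endoplasmic reticulum (ER). When sterols are scarce, SCAP escorts them to the Golgi, where the site-1 and site-2 proteases (Mbtps1 and Mbtps2) cut them in turn and free the part that enters the nucleus. When sterols are plentiful, INSIG proteins bind SCAP and hold the complex in the ER. Srebf1 encodes SREBP-1a and SREBP-1c, from separate starts, and drives mainly genes of fatty acid synthesis, while Srebf2 drives mainly genes of cholesterol synthesis and uptake. In liver, Srebf1 is a classical target of LXR and Rnf145 is a known one.

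On GRCm38.p6 the factors lie at chromosome 11, 60199084 to 60224186 (Srebf1) and chromosome 15, 82147269 to 82205379 (Srebf2), and Scap at chromosome 9, 110333288 to 110384949. The INSIG genes lie at chromosome 5, 28071412 to 28078662 (Insig1) and chromosome 1, 121304353 to 121332662 (Insig2), and the proteases at chromosome 8, 119508151 to 119558864 (Mbtps1) and chromosome X, 157547822 to 157598715 (Mbtps2). The ligases lie at chromosome 11, 44518793 to 44565520 (Rnf145) and chromosome 15, 58889229 to 58902390 (Rnf139), and all 9 are annotated as protein-coding.

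The libraries were made from the 3′ ends of mRNA and held 16196217 to 28287445 counts in RGX-104 and 16308726 to 24353797 in DMSO. Detection was uneven: 10442 to 10990 genes had a count in the RGX-104 libraries, against 9772 to 10194 in DMSO replicates 1 to 3 and 10908 in DMSO replicate 4. CD8 T cell markers (Cd8a, Cd8b1, Cd3d, Cd3e, Cd3g, Lck and Cd27) had counts in all 8 libraries and summed to 3038 to 3368 CPM (a gene's counts scaled to a library total of 1000000) in RGX-104 and 2970.4 to 3148 CPM in DMSO. Of the markers of other cells, the 4 B cell genes summed to 74.5 to 87.5 CPM in RGX-104 and 20.9 to 111 CPM in DMSO, and the 4 macrophage and monocyte genes to 0 to 10.2 CPM in RGX-104 and 1.56 to 14.5 CPM in DMSO. Cd4, Foxp3 and Zbtb7b summed to 1.59 to 3.68 CPM in RGX-104 and 2.47 to 10.01 CPM in DMSO, Ncr1 and Klrb1c to at most 0.713 CPM in RGX-104 and 0 in DMSO, and Alb and Col1a1 to 0 to 1.87 CPM in RGX-104 and 0 to 9.36 CPM in DMSO, with Ncr1 and Alb at 0 in all libraries. The part of these cells in the results was not tested.

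The promoter windows of the members are shown for Srebf1 and Rnf145, which changed, and for Srebf2, which did not pass. The RefSeq table of GRCm38.p6 holds 15 windows for 8 of the 9 members, each from 250 bases before to 50 after an annotated start; Rnf139 was not matched. A DR4 and an SRE were searched on both strands. LXR binds, as a pair with RXR, to a repeat of half-sites with a spacer (DR4, searched as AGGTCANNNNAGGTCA with up to 3 mismatches outside N), and SREBPs bind sterol regulatory elements (SRE, searched as TCACCCCAC with up to 1 mismatch). In the sequences, capitals mark a match, and in Srebf1 and Rnf145 also the 8 bases GGGTTACT on either strand. The Srebf1 window is that of its most downstream start (chr11:60210422-60210721, minus strand), 10156 bases from the start before it. The Rnf145 window is also that of its most downstream start (chr11:44520039-44520338, plus strand), and the Srebf2 window that of its single listed start (chr15:82147019-82147318, plus strand). The windows of starts 1 and 2 of Srebf1 and of Rnf145 held 0 matches and are not printed. The protein-coding Rnf145 models in GENCODE vM21 start at 44518964 and 44519442, before the printed window.
Srebf1: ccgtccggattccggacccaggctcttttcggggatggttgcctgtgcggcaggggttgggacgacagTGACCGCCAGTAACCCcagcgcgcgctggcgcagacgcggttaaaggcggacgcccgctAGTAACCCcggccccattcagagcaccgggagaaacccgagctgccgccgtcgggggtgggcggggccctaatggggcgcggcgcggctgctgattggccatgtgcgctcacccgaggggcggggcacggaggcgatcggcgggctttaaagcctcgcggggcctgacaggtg
Rnf145: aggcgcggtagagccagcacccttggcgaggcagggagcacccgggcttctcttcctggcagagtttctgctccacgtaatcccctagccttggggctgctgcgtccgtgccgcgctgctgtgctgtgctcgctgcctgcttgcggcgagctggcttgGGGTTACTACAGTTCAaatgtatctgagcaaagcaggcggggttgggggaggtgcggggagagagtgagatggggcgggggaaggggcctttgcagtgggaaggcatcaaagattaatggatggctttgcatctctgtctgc
Srebf2: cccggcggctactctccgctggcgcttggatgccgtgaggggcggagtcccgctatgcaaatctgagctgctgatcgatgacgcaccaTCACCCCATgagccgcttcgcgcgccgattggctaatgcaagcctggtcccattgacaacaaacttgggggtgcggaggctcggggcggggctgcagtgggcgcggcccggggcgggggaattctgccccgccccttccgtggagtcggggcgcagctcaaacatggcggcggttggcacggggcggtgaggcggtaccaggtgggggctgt

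In the Srebf1 window the DR4 match read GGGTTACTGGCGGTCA on the strand opposite to the gene and ended 167 bases before the start. In the Rnf145 window it read GGGTTACTACAGTTCA on the strand of the gene and ended 77 bases before the start. Both matches had 3 mismatches and opened with GGGTTACT, which occurred once more in the Srebf1 window, 116 bases before the start at its nearer end. These 8 bases, like the mismatch limits, were chosen after the windows had been read, and were found in 2 of the 15 windows of the members and in 0.554% of the 32851 windows of the table. A DR4 match with up to 3 mismatches is common, at 21.9% of all windows, and it was found in 5 of the 15 windows, also in those of Insig1, Insig2 and Mbtps2. The SRE search matched 1 window of the members, that of Srebf2 (TCACCCCAT, 1 mismatch), and 9.82% of all windows. A match is a description of letters and does not show that a factor binds there.

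Srebf1 and Rnf145 rose with RGX-104, and the other 7 members did not pass the test. All 9 members were tested, and 2 were called higher and 0 lower (edgeR quasi-likelihood test, adjusted p under 0.05 over 10037 genes), where 0.0996% of all tested genes were called higher and 0.00996% lower. At an unadjusted p under 0.05 there were 3 members higher, Srebf2 being the third, and 0 lower, where 1.98% of all tested genes were higher and 1.82% lower at that threshold. DESeq2 and limma-voom each called the same number, 2 higher and 0 lower. With 1 library left out of the edgeR fit, the Srebf1 call was always kept. The Rnf145 call was lost in most of these fits (edgeR adjusted p from 0.0464 to 0.256). Srebf1 and Rnf145 were the 2 members in which every RGX-104 library exceeded every DMSO library, as in 2.2% of tested genes, and 0 members had the opposite, as in 1.35%. Only mRNA was measured, so neither the amount of protein nor the cutting of SREBPs can be read from these values, and in bulk RNA a change in the cells present cannot be told apart from a change per cell.

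**Figure D1:**
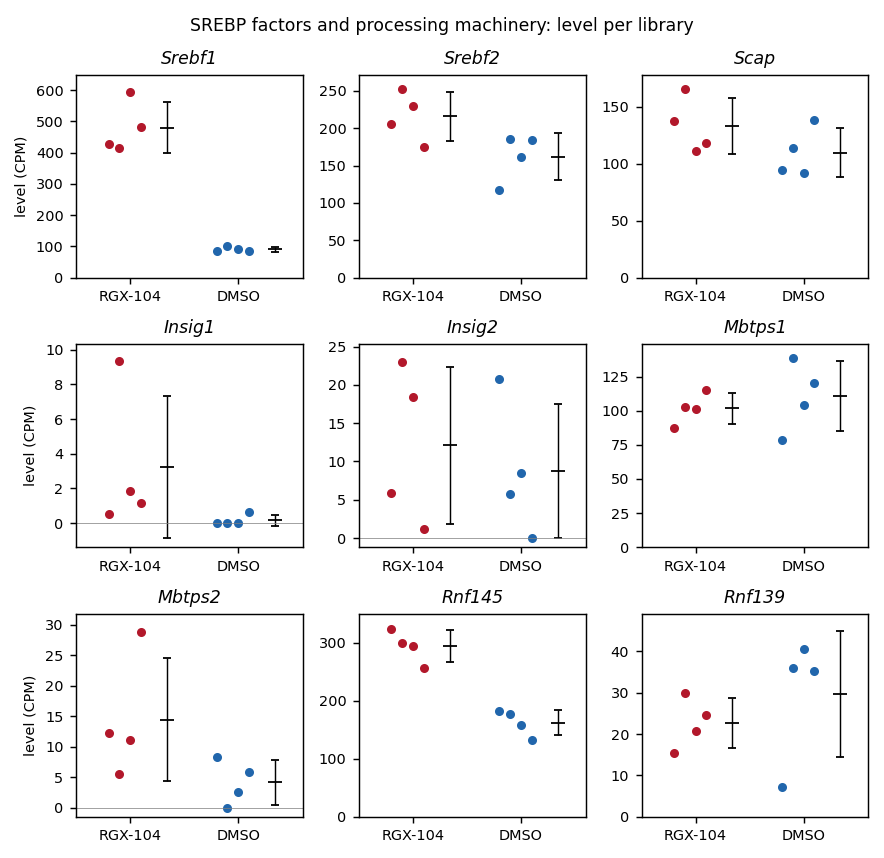
Level of each of the 9 members in CPM (vertical axes, each with its own scale) in the 4 RGX-104 and 4 DMSO libraries. Points are libraries, and the bar beside them is the mean ± SD. Srebf1 and Rnf145 are the members whose groups do not overlap.

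Srebf1 stood at 428, 417, 594 and 481 CPM in RGX-104 replicates 5 to 8, against 84.5, 102, 90.9 and 86.3 CPM in DMSO replicates 1 to 4. The lowest RGX-104 library was far above the highest DMSO library. The mean was 480 ± 80.9 CPM in RGX-104 and 90.8 ± 7.61 CPM in DMSO (SD, n = 4 each), a 5.29-fold difference of the means, and edgeR gave a log2 fold change of 2.39 ± 0.16 (SE; 95% interval 2.05 to 2.72; adjusted p = 3.45e-08). Among the 9 members Srebf1 had the highest mean CPM in RGX-104 and the fifth highest in DMSO. The call was kept in all 15 alternative fits, with log2 fold changes from 2.27 to 2.44.

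Srebf1 is transcribed from the minus strand, and its last 114 bases at the 3′ end overlap the end of Rai1 on the opposite strand. Rai1, a nuclear protein gene, was at 176 ± 25.7 CPM in RGX-104 and 147 ± 14.9 CPM in DMSO and did not pass, with a log2 fold change of 0.25 (adjusted p = 1.00). Of the 3 protein-coding Srebf1 models in GENCODE vM21, those that start at 60220604 and 60207188 end at the same base, 60199089. The model that starts at 60210465, close to the start whose window is printed, ends at 60200463. Counts taken at 3′ ends were summed per gene in the table, so SREBP-1a and SREBP-1c were not told apart.

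Srebf2 stood at 206, 252, 230 and 175 CPM in RGX-104 replicates 5 to 8, against 117, 185, 162 and 184 CPM in DMSO replicates 1 to 4. The groups overlapped, since RGX-104 replicate 8 lay below DMSO replicates 2 and 4. The log2 fold change was 0.40 ± 0.18 (95% interval 0.01 to 0.78, adjusted p = 1.00), and it was 0.20 against DMSO replicate 4 alone. This interval does not reach the change of Srebf1. Mir33, a microRNA gene within Srebf2, had 0 counts in all libraries.

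The ratio of Srebf1 to Srebf2 within a library compares the change of the pair directly. On the log2 scale, with 1 CPM added to each, it was 1.05, 0.72, 1.36 and 1.46 in RGX-104 replicates 5 to 8, against -0.46, -0.86, -0.83 and -1.08 in DMSO replicates 1 to 4. Srebf1 counts thus exceeded Srebf2 counts in every RGX-104 library and in no DMSO library. The size of the ratio itself depends on how well each 3′ end is captured, and counts are not scaled by length. The mean was 1.15 ± 0.33 in RGX-104 and -0.81 ± 0.26 in DMSO (SD, n = 4 each), a difference of 1.96 (two-sided exact permutation p = 0.0286, the smallest that 4 against 4 libraries can give). Adjusted over the 3 ratios tested it was 0.0857 and did not pass. A ratio at the smallest p can pass this adjustment only if another of the 3 reaches it too. Not passing is therefore no sign that the groups had equal ratios.

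**Figure D2:**
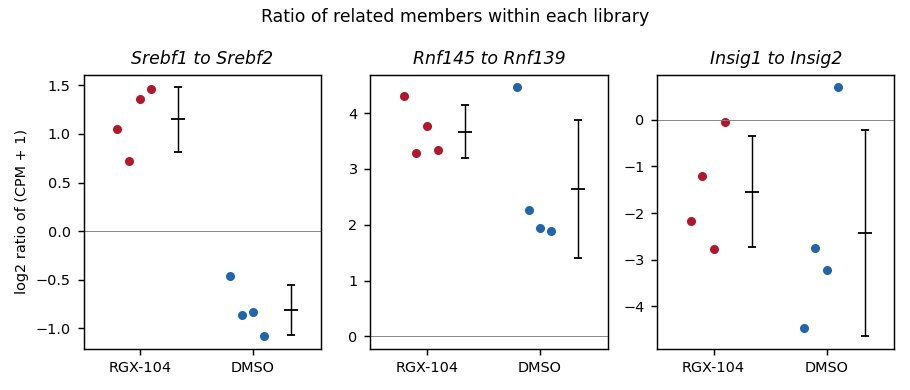
Log2 ratio of related members within each library (vertical axes), for Srebf1 to Srebf2, Rnf145 to Rnf139 and Insig1 to Insig2, with 1 CPM added to each level. Points are libraries, with the mean ± SD beside them, and the grey line marks equal levels; the Srebf1 to Srebf2 ratio lies above 0 in the 4 RGX-104 libraries and below 0 in the 4 DMSO libraries.

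Scap, the sterol-sensing escort, stood at 137, 166, 111 and 118 CPM in RGX-104 replicates 5 to 8, against 94.5, 114, 91.5 and 138 CPM in DMSO replicates 1 to 4. The groups overlapped, with DMSO replicate 4 above all but 1 RGX-104 library. The log2 fold change was 0.26 ± 0.21 (95% interval -0.18 to 0.70, adjusted p = 1.00), and it was -0.09 against DMSO replicate 4 alone, 0.13 without RGX-104 replicate 6 and 0.40 without DMSO replicate 4.

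The retention proteins were near the limit of detection. Insig1, in liver itself a target of SREBPs, had 15, 199, 30 and 20 counts in RGX-104 replicates 5 to 8 (0.530, 9.33, 1.85 and 1.19 CPM), against 0, 0, 0 and 10 counts in DMSO replicates 1 to 4 (0.613 CPM in replicate 4). A count was found in every RGX-104 library and in 1 DMSO library, but RGX-104 replicate 5 lay below DMSO replicate 4 in CPM. The fitted log2 fold change of 4.32 had a 95% interval from -1.65 to 10.3 (adjusted p = 1.00), so neither a large rise nor no change can be told from these counts. Single libraries moved the value: it was 2.88 without RGX-104 replicate 6 and 9.06 without DMSO replicate 4, where all DMSO libraries left are at 0 and the fitted value is no measure of size (adjusted p = 0.861). For a library with 0 counts, 3 counts would be 0.123 to 0.161 CPM in DMSO replicates 1 to 3, for counting error of independent reads only. The zeros of low genes give a much smaller number of apparent molecules, at 2.90 to 3.99 CPM per apparent molecule in RGX-104 and 3.16 to 5.48 CPM in DMSO. By that estimate Insig1 was at under 1 apparent molecule in 7 of the 8 libraries and at 2.72 in RGX-104 replicate 6.

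Insig2, the paralog that in liver is less dependent on SREBPs, stood at 5.87, 23.0, 18.5 and 1.25 CPM in RGX-104 replicates 5 to 8, against 20.8, 5.70, 8.46 and 0 CPM in DMSO replicates 1 to 4. The groups overlapped fully (log2 fold change 0.46, 95% interval -2.28 to 3.19, adjusted p = 1.00), and without RGX-104 replicate 6 the value was -0.06. It was 1.35 without DMSO replicate 1 and 0.04 without DMSO replicate 4. Against DMSO replicate 4 alone, which has 0 Insig2 counts, the fit gave 10.9, which is no measure of size (adjusted p = 0.574). The log2 ratio of Insig1 to Insig2 was -1.55 ± 1.19 in RGX-104 and -2.43 ± 2.21 in DMSO, with a difference of 0.89 (exact permutation p = 0.514, also 0.514 adjusted over the 3 ratios). It came to -2.25 against DMSO replicate 4 alone, the library with Insig1 counts and no Insig2 count.

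The proteases did not pass. Mbtps1, the site-1 protease, which also cuts ATF6 and other membrane proteins, stood at 87.3, 103, 101 and 115 CPM in RGX-104 replicates 5 to 8, against 78.7, 139, 104 and 121 CPM in DMSO replicates 1 to 4. All RGX-104 values lay within the range of the DMSO values. Its log2 fold change was -0.14 ± 0.22, with a 95% interval from -0.60 to 0.32 (adjusted p = 1.00), which does not reach the changes of Rnf145 or Srebf1. With 1 library left out it ran from -0.27 (without DMSO replicate 1) to -0.02 (without DMSO replicate 2). Mbtps2, the site-2 protease, a gene of the X chromosome, stood at 12.3, 5.58, 11.1 and 28.9 CPM in RGX-104 replicates 5 to 8, against 8.33, 0, 2.63 and 5.83 CPM in DMSO replicates 1 to 4. The means were 14.5 ± 10.04 CPM in RGX-104 and 4.20 ± 3.64 CPM in DMSO, RGX-104 replicate 6 lay below DMSO replicates 1 and 4, and the interval was wide (log2 fold change 1.76, 95% interval -1.03 to 4.55, adjusted p = 1.00). Yy2, a gene that lies within Mbtps2, was at 8.27 ± 6.38 CPM in RGX-104 and 1.73 ± 3.46 CPM in DMSO, with a log2 fold change of 2.21 that did not pass (adjusted p = 1.00). DMSO replicates 2 and 3 held the lowest values of Mbtps2, and with replicate 1 the zeros of Insig1, and these 3 libraries also had the fewest genes detected. In a fit with a covariate for the genes detected per library, Mbtps2 had a log2 fold change of 0.93, Insig1 of 3.86 and Insig2 of 5.90, and none passed (adjusted p = 1.00 for each).

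Rnf145, an ER ubiquitin ligase that in mouse liver is known to act on SCAP, stood at 324, 300.2, 294 and 257 CPM in RGX-104 replicates 5 to 8, against 182, 176, 158 and 133 CPM in DMSO replicates 1 to 4. Every RGX-104 library lay above every DMSO library. The mean was 294 ± 27.8 CPM in RGX-104 and 162 ± 21.9 CPM in DMSO (SD, n = 4 each), a 1.81-fold difference of the means, and edgeR gave a log2 fold change of 0.84 ± 0.16 (SE; 95% interval 0.51 to 1.17; adjusted p = 0.0352). In size this is below the change of Srebf1, and the intervals of the log2 fold changes do not meet. The direction was kept in all 15 alternative fits, with values from 0.76 to 1.11. The call was lost when DMSO replicate 2, 3 or 4 or RGX-104 replicate 5, 6, 7 or 8 was left out, and it was kept without DMSO replicate 1 (adjusted p from 0.0464 to 0.256 over these fits). It was also lost with a covariate for the genes detected per library (log2 fold change 1.05, adjusted p = 0.0519) and against DMSO replicate 4 alone (1.11, adjusted p = 0.0698). Gm51891, a long noncoding RNA gene within Rnf145, was at 9.87 ± 3.52 CPM in RGX-104 and 4.20 ± 3.67 CPM in DMSO (log2 fold change 1.22, adjusted p = 1.00).

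Rnf139, an ER ligase also called TRC8 that binds INSIG and SREBP precursors, stood at 15.5, 29.9, 20.7 and 24.6 CPM in RGX-104 replicates 5 to 8, against 7.25, 36.0, 40.5 and 35.1 CPM in DMSO replicates 1 to 4. DMSO replicate 1 was the lowest of all 8 libraries and the other DMSO libraries were the highest. The log2 fold change was -0.41 ± 0.53 (95% interval -1.52 to 0.71, adjusted p = 1.00), and it was -0.73 without DMSO replicate 1 and -0.23 without DMSO replicate 3. The log2 ratio of Rnf145 to Rnf139 was 3.67 ± 0.47 in RGX-104 and 2.64 ± 1.23 in DMSO, a difference of 1.03 that did not pass (exact permutation p = 0.171, 0.257 adjusted over the 3 ratios), and 1.64 without DMSO replicate 1. Tatdn1, which overlaps Rnf139 over 12238 bases, was at 13.1 ± 3.82 CPM in RGX-104 and 10.1 ± 1.98 CPM in DMSO, and its log2 fold change of 0.35 did not pass (adjusted p = 1.00).

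**Figure D3:**
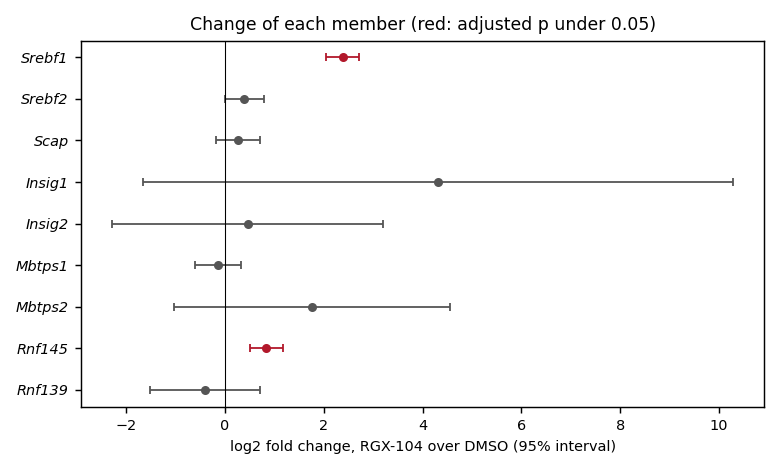
Log2 fold change of each member, RGX-104 over DMSO (horizontal axis), with its 95% interval from the edgeR fit. Srebf1 at 2.39 and Rnf145 at 0.84, in red, passed an adjusted p of 0.05, and the intervals of Insig1, Insig2 and Mbtps2 are the widest.

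The library-to-library profile of the members was set against 3543 other tested genes with a mean of at least 50 CPM, by Pearson's r on log2(CPM + 1) over the 8 libraries. The genes most like Srebf1 were Scd2 (r = 0.979), a desaturase of fatty acids, Mylip (r = 0.975), a ligase that degrades lipoprotein receptors, and Tomm40 (r = 0.974), a channel of the mitochondrial outer membrane. Tomm40 was at 101 ± 4.01 CPM in RGX-104 and 51.4 ± 5.19 CPM in DMSO, and its log2 fold change of 0.96 did not pass (adjusted p = 0.395). Those most like Rnf145 were the fatty acid synthase Fasn (r = 0.977), the sterol exporter Abcg1 (r = 0.970) and Scd2 (r = 0.967). For Srebf2 they were Rps27l (r = 0.961), Sh2d3c (r = 0.959) and Ndufaf4 (r = 0.947), none of them called. Most of the spread behind the values for Srebf1 and Rnf145 is the step between the groups, and all values share library and depth, so the correlations are a description only.

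Genes that work beside the members were read from lists of their roles. Of 14 listed genes of escort and ER-to-Golgi transport 13 were tested, and 0 were called (0 also at an unadjusted edgeR p under 0.05, by DESeq2 and by limma-voom), with a median log2 fold change of 0.23 beside 0.01 over all tested genes. This median moved with single libraries: it was 0.01 without DMSO replicate 1, -0.01 without RGX-104 replicate 7, 0.01 with genes detected as a covariate and -0.07 against DMSO replicate 4 alone. Sec24c, the cargo-binding coat subunit, was at 364 ± 65.9 CPM in RGX-104 and 377 ± 39.1 CPM in DMSO, and Sec31a, of the outer coat, at 144 ± 14.2 CPM in RGX-104 and 177 ± 30.8 CPM in DMSO. Sar1a, the GTPase that starts coat assembly, was at 120 ± 18.5 CPM in RGX-104 and 90.2 ± 16.0 CPM in DMSO, and its exchange factor Preb at 93.9 ± 27.8 CPM in RGX-104 and 84.4 ± 11.8 CPM in DMSO.

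Of 16 genes of ER-associated degradation 15 were tested, with 0 called, 1 higher and 0 lower at an unadjusted edgeR p under 0.05 (1.98% and 1.82% of all tested genes), 0 by DESeq2 and limma-voom, and a median of 0.10, which was 0.04 to 0.21 with 1 library left out. The one at an unadjusted p under 0.05 was Erlin1, a gene of an INSIG-binding ER protein, at 3.90 ± 2.31 CPM in RGX-104 and 0 counts in each DMSO library. It passed the filter on low counts only through the RGX-104 libraries, so its p-value is not read as a result. In RGX-104 1 apparent molecule is 2.90 to 3.99 CPM and in DMSO 3.16 to 5.48 CPM. Its level is thus near the floor, and the DMSO zeros need not mean absence. Vcp, the ATPase that pulls proteins from the ER membrane, was at 305 ± 27.4 CPM in RGX-104 and 288 ± 55.2 CPM in DMSO. Ubxn4 was at 298 ± 30.7 CPM in RGX-104 and 275 ± 19.3 CPM in DMSO. Ubac2 was at 201 ± 43.0 CPM in RGX-104 and 189 ± 28.6 CPM in DMSO. The ligase Syvn1 was at 94.0 ± 18.5 CPM in RGX-104 and 100.1 ± 15.7 CPM in DMSO. Of 8 listed membrane proteins cut by the same proteases 4 were tested and 0 called (0 at an unadjusted p under 0.05, and 0 by DESeq2 and limma-voom). Creb3l2 was at 18.0 ± 13.4 CPM in RGX-104 and 20.9 ± 17.4 CPM in DMSO, and Atf6, the sensor of unfolded proteins, at 7.13 ± 4.41 CPM in RGX-104 and 5.53 ± 7.05 CPM in DMSO.

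Of 21 regulators and cofactors of SREBPs 18 were tested and 0 called, with 2 higher and 0 lower at an unadjusted p under 0.05 (1.98% and 1.82% of all tested genes), 0 by DESeq2 and limma-voom, and a median of -0.12. The median changed sign to 0.04 without RGX-104 replicate 5 and to 0.01 without DMSO replicate 1. Those 2 were the coactivator Ep300, at 96.1 ± 18.7 CPM in RGX-104 and 66.1 ± 11.4 CPM in DMSO, and the kinase Gsk3a, at 182 ± 24.8 CPM in RGX-104 and 130.006 ± 30.9 CPM in DMSO. The coactivator Crebbp was at 342 ± 40.1 CPM in RGX-104 and 323 ± 42.1 CPM in DMSO. Usf2 was at 253 ± 51.7 CPM in RGX-104 and 202 ± 33.4 CPM in DMSO. Gsk3b, a kinase that marks nuclear SREBPs for degradation, was at 285 ± 46.6 CPM in RGX-104 and 292 ± 58.6 CPM in DMSO, and the partner factor Sp1 at 259 ± 24.5 CPM in RGX-104 and 229 ± 52.4 CPM in DMSO. Nr1h2, which encodes LXRβ, was at 43.3 ± 12.4 CPM in RGX-104 and 49.4 ± 14.9 CPM in DMSO. The rows of Mtor and Nfya held no count in any library, nor did, in other lists, those of Ufd1, Atf6b and Slc25a1. Why these rows are empty was not tested, and an empty row need not mean that a gene is not expressed. Such genes are among the listed ones but not among the tested ones.

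Known targets of the factors were set beside them. Of 18 listed SREBP-1 targets 12 were tested, and 2 were called higher and 0 lower, where 0.0996% and 0.00996% of all tested genes were. Of the 12 log2 fold changes 11 were above 0, and their median was 1.33, where that of all tested genes was 0.01. This median leans in part on genes near the floor. Scd1, Gpam and Fads1 had means of 7.13, 8.31 and 18.6 CPM in RGX-104 and 1.52, 2.08 and 4.68 CPM in DMSO. In DMSO 1 apparent molecule is 3.16 to 5.48 CPM, so the sizes of their changes are not settled. Scd2 rose by 5.23 ± 0.27 on the log2 scale (SE, edgeR adjusted p = 7.29e-10) and Fasn by 1.54 ± 0.19 (adjusted p = 1.74e-04), and both are also known targets of LXR itself. The same 2 genes were the ones called in each of the 15 alternatives, while the median of the list was 0.84 without RGX-104 replicate 5 and 1.19 with genes detected as a covariate. At an unadjusted p under 0.05 there were 4 higher and 0 lower, these 2 with Acaca and Mid1ip1, where 1.98% of all tested genes were higher and 1.82% lower. In the same 4 every RGX-104 library lay above every DMSO library, as in 2.2% of all tested genes. Acaca, which makes malonyl-CoA for fatty acid synthesis, was at 43.7 ± 6.59 CPM in RGX-104 and 13.3 ± 8.76 CPM in DMSO (log2 fold change 1.70, adjusted p = 1.00). Mid1ip1, which promotes the activity of that enzyme, was at 40.1 ± 4.71 CPM in RGX-104 and 18.4 ± 3.27 CPM in DMSO (log2 fold change 1.11, adjusted p = 1.00). Elovl5 and Elovl6, which lengthen fatty acids, did not pass. Elovl5 was at 324 ± 47.3 CPM in RGX-104 and 263 ± 79.4 CPM in DMSO, and Elovl6 at 93.5 ± 21.0 CPM in RGX-104 and 78.7 ± 29.8 CPM in DMSO. Of 23 listed SREBP-2 targets 21 were tested and 1 was called higher and 0 lower, with 18 of 21 log2 fold changes above 0 and a median of 0.73. At an unadjusted p under 0.05 there were 1 higher and 0 lower. Every RGX-104 library lay above every DMSO library in 2 of the 21 and below in 0. The shares over all tested genes are those given for the SREBP-1 targets. Among the fits with more than 1 DMSO library, the number called at an adjusted p under 0.05 was 0 only with genes detected as a covariate and without RGX-104 replicate 7. Against DMSO replicate 4 alone the median of the list was 0.64. Acat2, which makes the first intermediate of sterol synthesis, was at 172 ± 14.7 CPM in RGX-104 and 151 ± 40.3 CPM in DMSO. Ebp, a sterol isomerase, was at 52.5 ± 7.94 CPM in RGX-104 and 48.6 ± 15.0 CPM in DMSO, and Stard4, a sterol carrier, at 53.6 ± 20.7 CPM in RGX-104 and 37.1 ± 11.5 CPM in DMSO. The median of the SREBP-2 list was 0.51 with genes detected as a covariate. Some of the genes above its median were also low, such as Mvk (12.3 CPM in RGX-104 and 4.65 CPM in DMSO) and Fdft1 (20.4 CPM in RGX-104 and 5.08 CPM in DMSO).

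**Figure D4:**
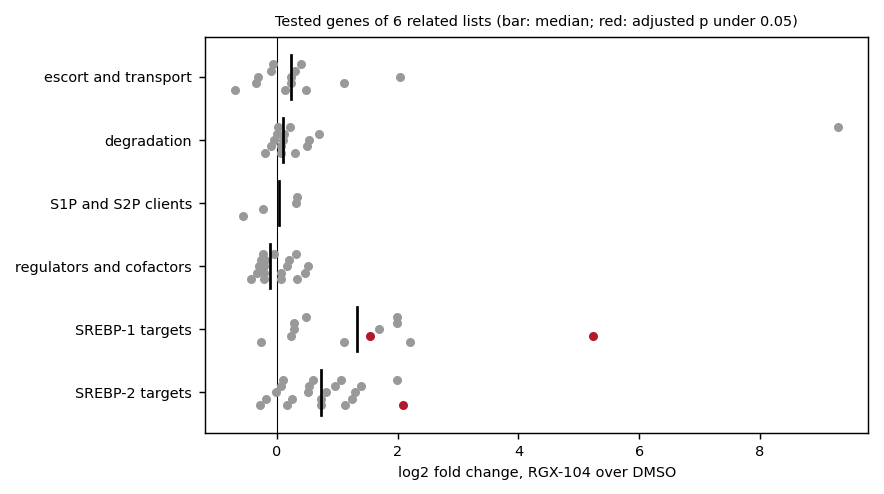
Log2 fold change, RGX-104 over DMSO (horizontal axis), of each tested gene in 6 lists around the SREBP system. Black bars are medians and red points passed an adjusted p of 0.05: 2 of 12 SREBP-1 targets, 1 of 21 SREBP-2 targets and 0 in the other lists. The point beyond 9 is Erlin1, whose fitted value is no measure of size because its DMSO libraries held 0 counts.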

How the data were processed

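Naive CD8+ T cells were profiled by QuantSeq 3′ mRNA sequencing, per the labels' protocols. The deposited values are raw counts per gene symbol, 1 column per library, without normalization. Per the submitters' processing notes, which assign no roles, STAR 2.7.8a, R 4.1.0, DESeq2 1.4 and GRCm38 were used. How reads were counted, with which annotation, strand setting or molecular identifiers, is not given in the sources used here, so overlapping genes may share reads.

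The main test was edgeR 4.0.16 in R 4.3.3, with its quasi-likelihood test, TMM normalization, group as the only term, filterByExpr with a minimum count of 10, which kept 10037 of 14589 genes with a count, and Benjamini-Hochberg adjustment over all of them. Called means an adjusted p under 0.05; the script was tested on simulated data. Standard errors are the log2 fold change over the square root of F. CPM are counts scaled to a library total of 1000000; ratios and correlations used TMM-scaled CPM with 1 CPM added. Alternatives were DESeq2 1.42.0, limma-voom 3.58.1, other size factors, no filter, robust dispersion, a covariate of genes detected, and libraries left out. Apparent molecules per library, 182352 to 344257, are the number that gives, under Poisson sampling, the observed zeros among genes of 2 to 20 CPM in the other libraries. Gene coordinates and promoter windows are RefSeq's on GRCm38.p6.

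Members and gene lists were chosen with earlier results of these data known. Named are all members, and the called genes and up to 4 of the highest genes of each list. Also named are the 3 genes most like Srebf1, Srebf2 and Rnf145, and genes overlapping a member. Tatdn1 and Yy2 fall under the last. So do Gm35223, which overlaps Insig1, and Mir6921 and Mir6922, which overlap Srebf1, each with 0 counts in all libraries. Mtor, Nfya, Ufd1, Atf6b, Slc25a1, Nr1h2, Erlin1, Ep300, Gsk3a, Acaca, Mid1ip1, Scd1, Gpam, Fads1, Mvk and Fdft1 were named after their values were seen. A called gene of the SREBP-2 list, although counts include it, and a CD8 T cell marker are not reported here.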

Additional observations from a re-analysis of the deposited data

Results flagged for a closer look

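In 24 groups of 4 libraries examined (9 members and 3 ratios in each group), 1 library stood apart in 4. The rule sets the gap to the nearest library against the range of the 4. Independent values with a normal spread would be flagged in about 1 of 20 such groups. These values are not of that kind, so 4 in 24 cannot be read as an excess. Any Insig1 count beside 0 in the other DMSO libraries is flagged, and the flagged ratio contains the flagged Rnf139 value. Insig1 stood at 9.33 CPM in RGX-104 replicate 6, against 0.530 to 1.85 CPM in the other RGX-104 libraries, and at 0.613 CPM in DMSO replicate 4, against 0 in the other DMSO libraries. Rnf139 in DMSO replicate 1 had 7.25 CPM, while DMSO replicates 2 to 4 had 35.1 to 40.5 CPM, and the log2 ratio of Rnf145 to Rnf139 stood at 4.47 in the same library, against 1.89 to 2.26.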

How the results depend on the processing

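Srebf1 kept its direction and call in all 15 alternatives, and no other member became called in any. Members called higher were 1 in place of 2, Srebf1 without Rnf145, with genes detected as a covariate and against DMSO replicate 4 alone, and 1 to 2 with 1 library left out. Rnf145 was at 1.05 (adjusted p = 0.0519) with the covariate, at 1.11 against DMSO replicate 4 alone and at 0.76 to 0.90 with 1 library left out. Scap reversed to -0.0878 against DMSO replicate 4 alone, as did the Insig1 to Insig2 ratio (-2.25, and 0.21 to 1.93 with 1 library left out), and Insig2 was at -0.0620 without RGX-104 replicate 6 at up to 1.35 with another library left out, at 5.90 with the covariate and at 10.9 against DMSO replicate 4 alone, where it has 0 counts; the cause was not tested. That fit of 1 DMSO library assumes that it varies like the RGX-104 libraries, and its median over all genes was 0.13 against 0.01. The Srebf1 to Srebf2 ratio differed by 1.85 to 2.23 over its alternatives. Over all genes, 10 were called higher and 1 lower, against 17 and 14 with DESeq2, 6 higher with the covariate, 3 lower with limma-voom, 4 lower without a filter, and 7 to 11 higher and 1 to 3 lower with 1 library left out. No paired analysis was possible because library numbers are not shared between the groups. At 1 apparent molecule per 2.90 to 5.48 CPM, the sizes of the changes of Insig1, Insig2 and Mbtps2 are not settled: over the alternatives Insig1 was at 2.34 to 9.06 and Mbtps2 at 0.93 to 3.04, and Insig2 went beyond its 95% interval.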
